A study of Mus musculus with 2 samples.

Results

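The miR-26 genes of the mouse are Mir26a-1, Mir26a-2 and Mir26b, and each lies in an intron of a gene of the Ctdsp family. They were taken by symbol from the GENCODE M21 annotation, and 3 of the 2202 miRNA genes in the tables are members. The data are microRNA sequencing libraries of RNA under 30 nt from left cerebral cortices of B6CASTF1/J males at 4 days of age, F1 animals of C57BL/6J and CAST/EiJ parents. Both libraries belong to 1 group, and the labels call them biological replicates 2 and 1 and name no treatment, transgene or other genotype. They are called the replicate-2 library and the replicate-1 library here. The labels number the animals apart but give both the same donor identifier, so whether the libraries come from separate animals is not clear from them. The marker miRNAs of the replicate-2 library go against its label as cortex. Muscle markers summed to 157120 CPM (counts scaled to the own-strand library total) there, of which Mir206 alone gave 156302 CPM. In the replicate-1 library they summed to 73.7 CPM. Cortical neuron markers summed to 1316 CPM in the replicate-2 library against 42668 CPM in the replicate-1 library. Whether the tissue of the replicate-2 library is as labelled was not tested, and every difference between the libraries below carries that limit.

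A miRNA guides an Argonaute protein to messenger RNAs that pair with its seed, the bases near its 5′ end, and lowers their output. The miR-26 family is widely expressed and is known from differentiating cells, where miR-26a represses Ezh2 in mouse muscle precursor cells. Its hosts, Ctdsp1, Ctdsp2 and Ctdspl, encode small phosphatases that act on RNA polymerase II and work with the repressor REST, which keeps neuronal genes silent in other cells. In zebrafish, miR-26b represses ctdsp2, a transcript that carries a miR-26 gene, as neurons form.

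The 3 hairpins were matched by symbol in the RefSeq table (build GRCm38.p6), and their sequences are shown because they decide which reads can be given to which gene. Capitals mark the mature arms, 5p first and then 3p, and all lie on the plus strand.
Mir26a-1 (chr9:119031796-119031885): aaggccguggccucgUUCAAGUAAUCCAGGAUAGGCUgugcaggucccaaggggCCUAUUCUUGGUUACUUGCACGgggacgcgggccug
Mir26a-2 (chr10:126995530-126995613): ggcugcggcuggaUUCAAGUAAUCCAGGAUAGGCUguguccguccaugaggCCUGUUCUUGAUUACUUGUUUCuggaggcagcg
Mir26b (chr1:74394310-74394394): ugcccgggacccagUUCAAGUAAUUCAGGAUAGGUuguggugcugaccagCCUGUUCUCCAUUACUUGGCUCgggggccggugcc

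The mature arms are shown next with the seed, bases 2 to 8, in capitals, because the 5p arms share a seed and the 3p arms do not all do so.
mmu-miR-26a-5p: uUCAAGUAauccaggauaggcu
mmu-miR-26b-5p: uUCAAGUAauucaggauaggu
mmu-miR-26a-1-3p: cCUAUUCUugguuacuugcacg
mmu-miR-26a-2-3p: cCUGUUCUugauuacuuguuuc
mmu-miR-26b-3p: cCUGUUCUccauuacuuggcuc

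Only miR-26a-5p and miR-26b-5p carry the 5p seed among the 1738 mature entries of the RefSeq table. Counted from 1 at the 5′ end, miR-26b-5p differs from miR-26a-5p at 2 of 21 positions, C11U and C21U, both outside the seed. The 3p arms of the Mir26a genes differ from each other at 6 of 22 positions. One of these, A4G, falls in the seed, so the miR-26a-2-3p seed matches that of miR-26b-3p and not that of miR-26a-1-3p.

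Both Mir26a genes make the same mature 5p arm of 22 nt, and their hairpins share an unbroken run of 25 nt that starts with the arm and goes 3 nt past its end. A read of the mature 5p arm therefore has a perfect match in each of these hairpins, and only reads that reach outside the run can be told apart by sequence. Of the 22-nt windows of the hairpin, 4 of 69 in Mir26a-1 and 4 of 63 in Mir26a-2 also occur in another hairpin of the table, and 0 of 64 in Mir26b do. The longest run that Mir26b shares is 11 nt with Mir26a-1 and 10 nt with Mir26a-2. Column layout in the tables is that of STAR gene counts, which assigns to no gene any read with several placements. The Mir26a counts below are therefore uncertain as levels of mature miR-26a, while Mir26b has no copy in the table that makes its mature arms. The number of mismatches the authors allowed is not given in the sources used here.

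**Figure D1:**
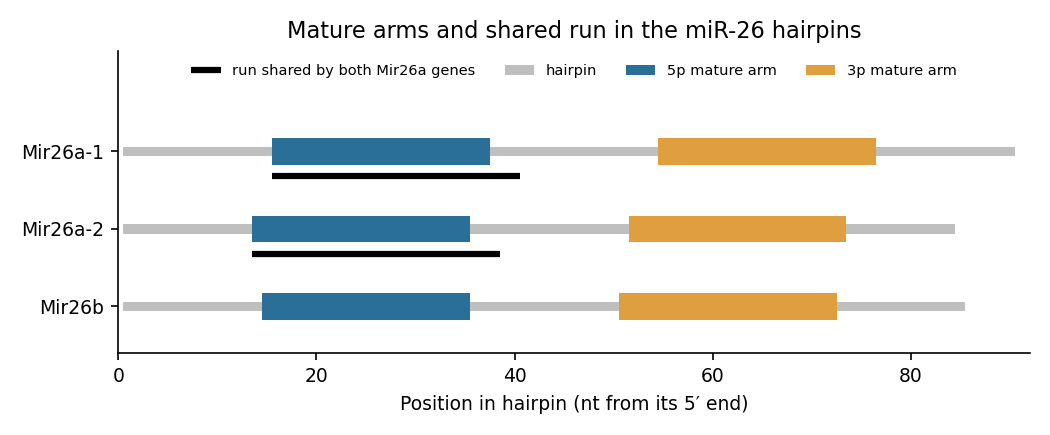
Maps of the 3 miR-26 hairpins, with position in nt from the 5′ end on the x axis, the hairpin as a thin bar and the mature arms as blue (5p) and orange (3p) bars. The black lines mark the 25 nt run shared by Mir26a-1 and Mir26a-2, which covers the whole 5p arm and none of the 3p arm.

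Mir26b lies in intron 4 of the Ctdsp1-201 transcript, Mir26a-1 in intron 5 of Ctdspl-201 and Mir26a-2 in intron 5 of Ctdsp2-202, all on the strand of the host. In each host the exon before the intron is 57 nt long and the exon after it is 93 nt long. The introns themselves differ in length, with 3283 nt in Ctdspl, 1946 nt in Ctdsp2 and 564 nt in Ctdsp1. The hairpin starts 1543 nt after the upstream exon for Mir26a-1, 1621 nt for Mir26a-2 and 234 nt for Mir26b. The last base of Mir26a-2 is also the first base of an alternative first exon in the Ctdsp2-201 and Ctdsp2-203 transcripts, an overlap of 1 nt. No gene other than the host overlaps a member in the annotation. Host messenger RNA was not measured in these libraries.

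**Figure D2:**
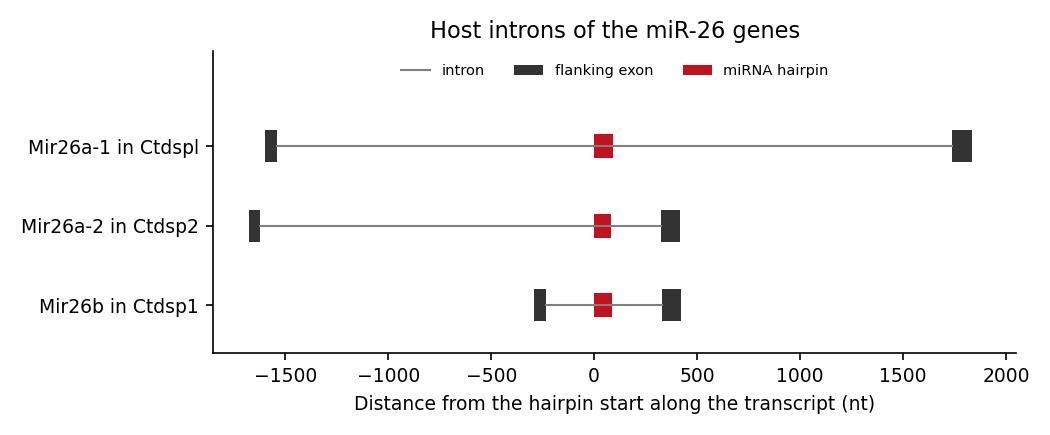
Host introns drawn to scale, with the distance in nt from the start of the hairpin along the transcript on the x axis, introns as lines, flanking exons as black boxes and hairpins as red boxes. The flanking exons have the same lengths in all 3 hosts (57 and 93 nt), while the introns run from 564 to 3283 nt.

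The libraries differed widely in their other miRNAs. The replicate-2 library held 3577964 own-strand miRNA counts of 6800067 reads, and the replicate-1 library held 2999032 of 10029659. Reads placed at several sites numbered 2706949 and 4626252 (39.8% and 46.1%) in the same order. Cortical neuron markers summed to 1316 CPM with 10 of 14 markers detected in the replicate-2 library, against 42668 CPM and 14 of 14 in the replicate-1 library. Mir124a-1, Mir124a-2, Mir124a-3 and Mir9-2 were the neuron markers at 0 in the replicate-2 library. They had only 8, 3, 1 and 7 counts in the replicate-1 library, and their copies share mature arms, so these counts are uncertain. Of all 2202 genes, 604 had at least 1 count in the replicate-2 library and 693 in the replicate-1 library. Muscle markers summed to 157120 CPM (9 of 10 detected) against 73.7 CPM (4 of 10; Mir1a-1, Mir1a-2, Mir133a-1, Mir133a-2, Mir208a and Mir208b at 0), and Hox cluster markers to 19112 CPM (5 of 5) against 228 CPM (4 of 5), again with the replicate-2 library first. Nearly all of the muscle sum was Mir206, with 156302 CPM in the replicate-2 library and 70.7 CPM in the replicate-1 library. Vascular markers (3 of 3 detected in each) summed to 46995 and 17107 CPM, and red blood cell markers (2 of 2) to 68.2 and 16.7 CPM. Epithelial markers (7 of 7) summed to 4749 and 1562 CPM, but by total counts 2 were called higher and 3 lower in the replicate-2 library, with a median log2 ratio of -0.08 (6 higher, 0 lower and a median of 1.32 by TMM scaling). Leukocyte and microglia markers (4 of 4) summed to 519.8 and 637 CPM, yet 3 were called higher and 1 lower, with a median of 0.60 (2.01 by TMM). The lower one was Mir150, with 74.6 CPM in the replicate-2 library and 402.8 CPM in the replicate-1 library. Of all 463 tested genes, 26.3% were called higher and 63.7% lower in the replicate-2 library by total counts, with a median log2 ratio of -1.67. By TMM these were 40.6%, 39.3% and -0.27. The part of these cell types in the miR-26 values was not tested. In bulk RNA, fewer cells of a type and less RNA per cell cannot be told apart.

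Mir26b was by far the most counted member in both libraries. It had 60616 counts in the replicate-2 library, or 16941 CPM (exact 95% binomial interval 16808 to 17076), and 27061 counts in the replicate-1 library, or 9023 CPM (8917 to 9131). It ranked 17 and 25 by CPM among the 2202 genes. The intervals do not overlap, and Mir26b was the higher in the replicate-2 library. Its mean was 12982 ± 5599 CPM (SD, n = 2).

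Mir26a-1, the copy in Ctdspl, had 6 counts in the replicate-2 library and 272 in the replicate-1 library. These are 1.68 CPM (0.615 to 3.65) and 90.7 CPM (80.2 to 102), and ranks 335 and 212. Mir26a-2, the copy in Ctdsp2, had 115 and 198 counts, which are 32.1 CPM (26.5 to 38.6) in the replicate-2 library and 66.0 CPM (57.1 to 75.9) in the replicate-1 library. Its ranks were 223 and 229. Both copies were detected in both libraries, above the 0.838 and 1.00 CPM that a count of 0 allows, although the lower bound for Mir26a-1 in the replicate-2 library reached below that limit. The means were 46.2 ± 62.9 CPM for Mir26a-1 and 49.1 ± 24.0 CPM for Mir26a-2 (SD, n = 2), so the SD of Mir26a-1 was larger than its mean. The opposite strand held 0 counts for all 3 members, and unstranded counting gave the same member counts.

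**Figure D3:**
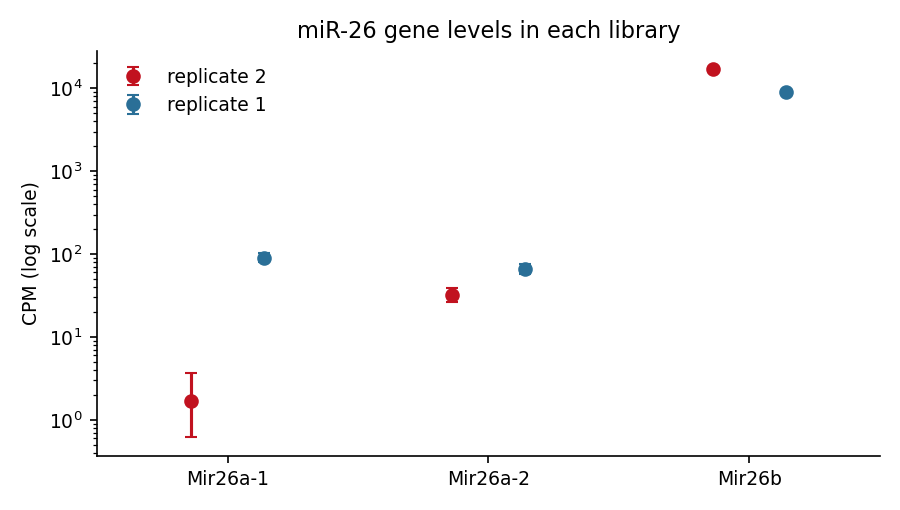
CPM of each miR-26 gene on a log scale, with 1 point per library (red for the replicate-2 library, left, and blue for replicate 1, right) and bars for the exact 95% binomial interval. Mir26b sits at 16941 and 9023 CPM, and the points of Mir26a-1 lie at 1.68 and 90.7 CPM.

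Set against hairpin length (90 nt for Mir26a-1, 84 nt for Mir26a-2 and 85 nt for Mir26b), the order of levels was Mir26b, Mir26a-2, Mir26a-1 in the replicate-2 library and Mir26b, Mir26a-1, Mir26a-2 in the replicate-1 library. In CPM per 100 nt of hairpin, the replicate-2 library had 19931 for Mir26b, 38.3 for Mir26a-2 and 1.86 for Mir26a-1. The replicate-1 library had 10616 for Mir26b, 101 for Mir26a-1 and 78.6 for Mir26a-2. Per nt, Mir26a-1 was thus 0.0487 times Mir26a-2 in the replicate-2 library and 1.28 times Mir26a-2 in the replicate-1 library. The hairpins are so close in length that this scaling could not change the order by CPM. These orders hold for reads given to a gene and not for mature miR-26a, whose 5p reads match both copies.

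The comparison the design allows is between the 2 libraries of the group, and asks how alike they are. By total counts, Mir26b was 1.88-fold higher in the replicate-2 library (log2 ratio 0.91, 95% interval 0.89 to 0.93, adjusted p of at most 3.83e-300 by an exact binomial test, two-sided, Benjamini-Hochberg over 463 genes). Mir26a-1 was 54.1-fold lower (24.5 to 149; log2 ratio -5.76, interval -7.22 to -4.62, adjusted p = 7.21e-83 by the same exact test). Mir26a-2 was 2.05-fold lower (1.62 to 2.61; log2 ratio -1.04, interval -1.38 to -0.70, adjusted p = 6.93e-10 by the same exact test). All 3 members passed, 1 as higher and 2 as lower, where 90.1% of all tested genes passed, 26.3% as higher and 63.7% as lower. A share of that size says little about the members, and the test weighs these 2 libraries by counting error only and compares no conditions. The libraries are themselves the replicates, so no difference here can be shown to exceed the spread between replicates. The coefficient of variation over the tested genes was 1.27. A negative binomial exact test (edgeR) with a coefficient of variation set at 0.4, below that estimate, ended the calls for Mir26a-2 (adjusted p = 0.304) and Mir26b (adjusted p = 0.360).

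The direction for Mir26a-2 depended on the scaling. Over all tested genes the median log2 ratio was -1.67 by total counts and -0.27 by TMM scaling, which lies 1.40 above total counts for every gene. By TMM the log2 ratio was 2.31 for Mir26b, 0.37 for Mir26a-2 (adjusted p = 0.0415 by the exact binomial test) and -4.35 for Mir26a-1. Mir26b was therefore higher and Mir26a-1 lower in the replicate-2 library under both scalings, while Mir26a-2 changed sign. Relative to the median of tested genes, the members lay at 2.58 (Mir26b), 0.63 (Mir26a-2) and -4.09 (Mir26a-1) on the log2 scale. This order does not depend on scaling. Of the 463 tested genes, 28 had a lower ratio than Mir26a-1, 263 a lower ratio than Mir26a-2 and 357 a lower ratio than Mir26b. A count of 0 was set to 3 counts, so the ratio of a gene at 0 in the replicate-2 library is an upper bound. The 28 is therefore a minimum. With TMM all 3 members passed too, 2 as higher and 1 as lower, where 79.9% of tested genes passed, 40.6% as higher and 39.3% as lower.

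**Figure D4:**
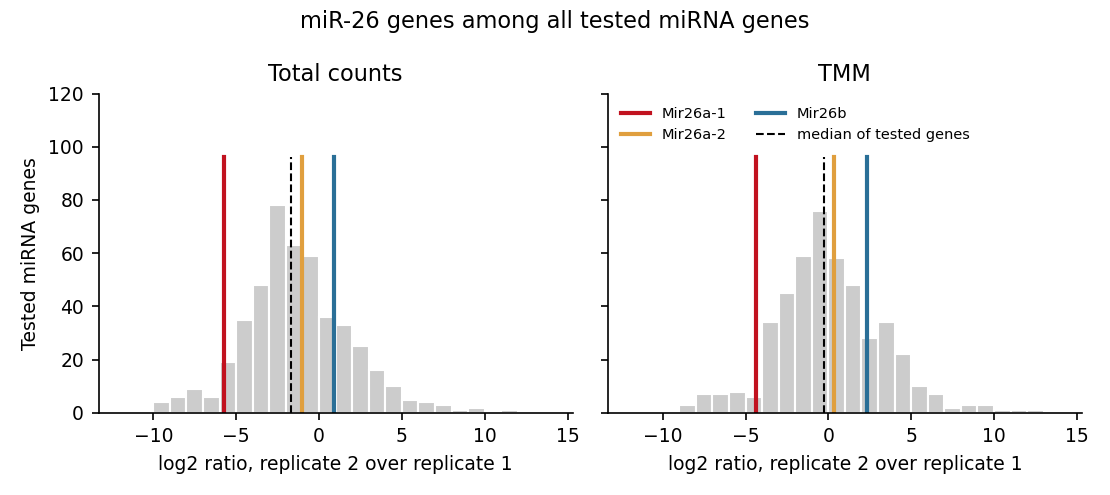
Histograms of the log2 ratio (replicate-2 library over replicate 1) of the 463 tested miRNA genes by total counts (left) and TMM (right), with the miR-26 genes as coloured lines and the median as a dashed line. Mir26a-1 lies in the lower tail and Mir26b above the median in both, and Mir26a-2 lies at -1.04 by total counts and 0.37 by TMM.

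Ratios within the family need no scaling between libraries, and both changed by more than counting error. Mir26b had 501 counts for each count of the summed Mir26a genes in the replicate-2 library, against 57.6 in the replicate-1 library, an 8.70-fold higher ratio (exact conditional 95% interval 7.11 to 10.7). Of all miR-26 counts, Mir26b took 99.8% (99.8 to 99.8) and 98.3% (98.1 to 98.4), Mir26a-2 took 0.189% (0.156 to 0.227) and 0.719% (0.623 to 0.826), and Mir26a-1 took 0.00988% (0.00363 to 0.0215) and 0.988% (0.875 to 1.11), the replicate-2 library first. Between the copies, Mir26a-1 made up 4.96% (1.84 to 10.5) of the 121 Mir26a counts in the replicate-2 library and 57.9% (53.3 to 62.4) of the 470 in the replicate-1 library. The ratio of Mir26a-1 to Mir26a-2 was 26.3-fold lower in the replicate-2 library (11.4 to 74.3). This last ratio rests on 6 counts of Mir26a-1 in that library. For every Mir26a count there were 22371 reads placed at several sites in the replicate-2 library and 9843 in the replicate-1 library, and which miRNAs those reads came from is not given in the tables. Whether the ratios hold for all miR-26a molecules was not tested.

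Every pair of miRNA genes that share a mature arm in the RefSeq table was compared in the same way, as a description with no test. Of 60 such pairs in the tables, 25 had both genes tested and 21 had counts above 0 for both genes in both libraries. The size of the log2 change in their ratio ran from 0.26 to 6.76 with a median of 1.29, and was at least 2 in 9 of the 21. The value for Mir26a-1 over Mir26a-2 was -4.72 (-6.22 to -3.51), and 2 of the 21 pairs had a point value larger in size.

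Those 2 pairs were Mir7-1 over Mir7-2 at 6.76 (4.22 to 12.1) and Mir219a-1 over Mir219a-2 at 4.75 (2.69 to 7.28). Mir7-1 and Mir7-2 had 75 and 1 counts in the replicate-2 library, against 300 and 435 in the replicate-1 library, so that change rests on 1 count of Mir7-2. Mir219a-1 and Mir219a-2, which make a miRNA known from myelin-forming glia, had 10 and 3 counts in the replicate-2 library, against 39 and 314 in the replicate-1 library. Mir24-1 over Mir24-2 came next after the Mir26a pair at -4.24 (-5.13 to -3.37), with 51 and 483 counts in the replicate-2 library against 48 and 24 in the replicate-1 library. By point value, changes as large as that of the Mir26a pair were thus also seen between copies of other miRNAs. The intervals of these pairs overlap that of the Mir26a pair in size, so their order is uncertain.

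The pairs among the listed families had smaller changes. Mir103-1 and Mir103-2, in introns of the pantothenate kinase (Pank) genes, share a run of 27 nt. They had 10 and 73 counts in the replicate-2 library, against 17 and 96 in the replicate-1 library. Their ratio changed by a log2 value of -0.37 (-1.75 to 0.94), an interval that holds 0. For Mir128-1 over Mir128-2, a neuron-enriched pair with a shared run of 23 nt that goes 0 nt past the end of the mature arm, it was -0.79 (-0.89 to -0.69). For Mir218-1 over Mir218-2 it was 1.28 (-0.58 to 2.97), and for Mir30c-1 over Mir30c-2, of the miR-30 family, it was 0.68 (0.32 to 1.05). For Mir9-1 over Mir9-3 it was 2.16 (-4.14 to 8.45), with 1 count of each in the replicate-2 library. That interval is too wide to rank this pair against the Mir26a pair.

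Like the miR-26 family, the Pank family has a pair of copies of 1 mature miRNA and a single-copy gene with its own. The families differ in how far the single-copy gene can be told apart by sequence. Mir107 shares a run of 24 nt with each Mir103 gene, while Mir26b shares 11 nt with Mir26a-1 and 10 nt with Mir26a-2. The Pank 3p arms miR-103-3p and miR-107-3p differ only by G22C. A read of the arm that ends before that base therefore matches Mir107 and both Mir103 genes. Mir107 held most of the counts given to the family, with 92.3% in the replicate-2 library and 98.7% in the replicate-1 library, as Mir26b did in its own. Reads with several placements are assigned to no gene in this layout, so copies with a shared arm lose counts. The shares are therefore uncertain as levels of the mature miRNAs in both families. The ratio of Mir107 to the summed Mir103 genes moved the other way, with 11.9 in the replicate-2 library and 78.6 in the replicate-1 library (log2 change -2.72, -3.15 to -2.28, against 3.12, 2.83 to 3.42, for Mir26b over Mir26a). These changes are not like for like, because Mir107 can also lose shorter reads that match the Mir103 genes. Mir128-1 and Mir128-2, whose shared mature arm is likewise identical in both hairpins, had 2623 and 1379 counts in the replicate-2 library and 53592 and 16271 in the replicate-1 library.

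**Figure D5:**
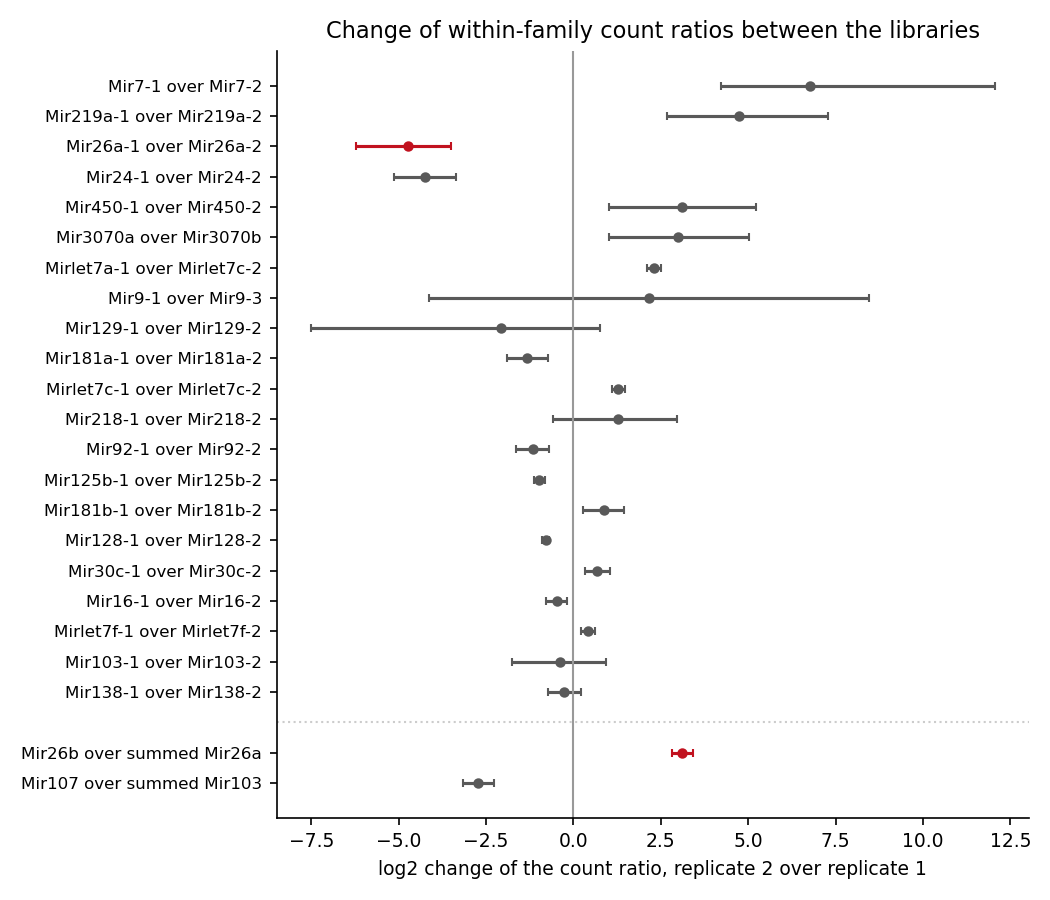
Log2 change of the ratio of counts within a family, replicate-2 library over replicate 1, with exact conditional 95% intervals as bars. Above the dotted line are the 21 pairs of genes that share a mature arm, by size of change, and the miR-26 ratios are in red: Mir26a-1 over Mir26a-2 (-4.72) comes after Mir7-1 over Mir7-2 (6.76) and Mir219a-1 over Mir219a-2 (4.75).

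Neuronal miRNAs tied to REST and its partners were lower in the replicate-2 library wherever they had enough counts to be tested. Mir124a genes make miR-124, which represses Ctdsp1 in the chick neural tube, and the Mir9 genes and the Mir132 and Mir212 pair have been tied to repression by REST. Of these 8 genes 4 had enough counts to be tested, and 0 were higher and 4 lower in the replicate-2 library by both scalings, where 63.7% of all tested genes were lower by total counts and 39.3% by TMM. They had a median log2 ratio of -6.45 by total counts and -5.04 by TMM, where the median of all tested genes was -1.67 and -0.27. All of the listed genes except Mir212 are also among the cortical neuron markers, so these values largely repeat the marker result and are not particular to REST. Of the 10 neuron markers tested, 10 were lower by total counts (median -4.99) and 9 by TMM (median -3.58). Mir132, an activity-regulated miRNA, had 391 counts in the replicate-2 library and 11179 in the replicate-1 library. Mir9-3 had 1 and 837 counts, and Mir9-1 had 1 and 187. The 3 Mir124a genes had 0 counts in the replicate-2 library and 8, 3 and 1 in the replicate-1 library. Their copies share mature arms, so these counts are uncertain in the same way as those of Mir26a.

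In the other families listed, 0 genes were called higher in the replicate-2 library by total counts, where 26.3% of all tested genes were, and 4 were by TMM, where 40.6% were. Of all tested genes, 63.7% were called lower by total counts and 39.3% by TMM, with median log2 ratios of -1.67 and -0.27. Of the 5 neuronal genes in host introns (Mir128-1, Mir128-2, Mir153, Mir218-1 and Mir218-2), 0 were higher and 5 lower, with a median log2 ratio of -3.82 (-2.41 by TMM, with 4 lower). Of the 3 Pank genes 0 were higher and 2 lower, with a median of -1.02 (0.38 by TMM, with 1 higher and 1 lower). Of the 6 miR-30 genes, another widely expressed family, 0 were higher and 6 lower, with a median of -1.25 (0.15 by TMM, with 3 higher and 3 lower). Mir30a had 8774 and 12516 counts and Mir30e 8664 and 9832, the replicate-2 library first.

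The genes nearest to each member in level, by distance over the log2(CPM + 1) values of the 2 libraries, differed between members. Mir23b (distance 0.33), Mir126a (0.60) and Mir379 (0.72) were nearest to Mir26b, and Mir23b had 20622 CPM in the replicate-2 library and 10093 CPM in the replicate-1 library. Mir29c (0.16), Mir701 (0.38) and Mir32 (0.48) were nearest to Mir26a-2, and Mir29c had 29.3 and 70.7 CPM. Mir217 (0.47), Mir219a-2 (0.58) and Mir384 (0.79) were nearest to Mir26a-1, and Mir217 had 1.68 and 65.0 CPM. No gene was among the nearest of more than 1 member, which follows from how far apart the members lie in level.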

How the data were processed

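MicroRNA libraries under 30 nt were made from total RNA, per the labels. The authors deposited, for each library, raw counts of reads on each miRNA gene (3 columns) with mm10 and GENCODE M21 as build and annotation, per the accompanying text. No aligner or counter is given in the sources used here. Main values use the own-strand column. Entries without a gene (unplaced 6.11% and 18.4%, several sites 39.8% and 46.1%, outside miRNA genes 1.47% and 5.55% of reads in the libraries labelled replicates 2 and 1) stayed out of library sizes and tests.

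All 2202 identifiers matched GENCODE M21, and sequences came from RefSeq (GRCm38.p6). CPM is scaled to the own-strand total. Genes with at least 10 summed counts (463) were compared by an exact binomial test (two-sided) against the share of total counts, adjusted by Benjamini-Hochberg (threshold 0.05). Folds are the replicate-2 library over replicate 1, with no pseudocount, and a count of 0 was set to 3 counts. Intervals are exact 95% (Clopper-Pearson for shares and folds, conditional for ratios of ratios) and cover counting error only, and amplified reads are not independent molecules. With 1 group of 2 libraries edgeR's quasi-likelihood test was not possible, and an exact permutation test cannot go below p = 0.5. TMM factors were 0.615 for the replicate-2 library and 1.63 for the replicate-1 library.

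The members and lists were chosen with earlier results of these data known. Named genes are the members, the genes of the lists and the 3 nearest genes of each member (distance with a pseudocount of 1 CPM). The ratios between copies, the list of all 21 pairs that share a mature arm, the naming of the Mir7, Mir219a and Mir24 pairs, and the ratio of Mir107 to Mir103 were added after the values were seen. The marker lists held 2 names, Mir486a and Mir142hg, that are not used here. Alternatives were TMM and DESeq2 scaling, all reads, the total without the most abundant gene (Mirlet7i), unstranded counts, filters of 1 and 100 counts, a negative binomial exact test and each library alone. Python 3.11.15 was used with scipy 1.17.1, pandas 2.3.3, numpy 2.4.6 and matplotlib 3.10.9, and R 4.3.3 with DESeq2 1.42.0 and edgeR 4.0.16.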

Additional observations from a re-analysis of the deposited data

How the results depend on the processing

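Mir26a-1 was lower and Mir26b higher in the replicate-2 library under all 8 alternatives, with log2 ratios from -5.83 to -4.21 and from 0.83 to 2.46. The filters of 1 and 100 counts and the negative binomial test keep the log2 ratio as reported, so their direction was fixed in advance. Mir26b lost its call in the negative binomial exact test (log2 ratio 0.91, adjusted p = 0.360), whose set coefficient of variation of 0.4 lies below the 1.27 over the tested genes, so that calls it leaves in place say nothing of stability. Mir26a-2 turned to 0.37 with TMM and 0.51 with DESeq2 size factors. It lost its call with all reads as the total (-0.22, adjusted p = 0.227 by the exact binomial test) and in the negative binomial exact test (-1.04, adjusted p = 0.304). With all reads as the total, mean levels were 14.0 CPM for Mir26a-1 (29.2 with TMM, against 46.2 as reported), 18.3 CPM for Mir26a-2 and 5806 CPM for Mir26b. The Pank median turned to 0.38 with TMM (1 higher, 1 lower) and that of the miR-30 family to 0.15 (3 higher, 3 lower). Counts of genes passing, 417 in the analysis as reported (122 higher, 295 lower), were split as 188 higher against 182 lower by TMM and as 198 higher against 166 lower by DESeq2 size factors. They were 245 (68 higher, 177 lower) with the negative binomial test. A filter of 100 counts left 295 genes to test, against 463 as reported, and 285 of these passed (103 higher, 182 lower). The shift with scaling follows from the factors, and the cause of the difference between the libraries was not tested. No paired analysis was possible because the libraries form 1 group. Depth limits Mir26a-1 most, with 6 counts in the replicate-2 library.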
